A study of Mus musculus with 8 samples.

Results

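The 41 genes described here encode Wnt ligands, their receptors, the machinery that carries the signal to beta-catenin, and the secreted and membrane proteins that tune it. They were taken by gene symbol from a fixed list, and all 41 were found among the 15358 genes of the count table. RNA was extracted from whole ventricles of mouse hearts on embryonic day 14.5, and both groups carried floxed alleles of Lem2 (gene symbol Lemd2), which encodes an inner nuclear membrane protein. Control embryos, described as littermates, had the genotype Lem2 f/f, and conditional knockout (cKO) embryos also carried the Cre transgene XMLC2V. No source used here gives the cells in which this transgene is active. The table held 3 control and 4 cKO libraries of the 4 and 4 samples listed, and control replicate 4 was not analysed here.

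Wnt proteins are lipid-modified ligands that bind Frizzled receptors. Together with the co-receptors Lrp5 and Lrp6 they stop a destruction complex from degrading beta-catenin, which then enters the nucleus and works with TCF and LEF factors. Other Wnt proteins act through Ror and Ryk receptors on cell polarity and movement. In the heart, Wnt signals guide the specification of cardiac progenitors, the growth of the ventricular wall, and the formation of valves and outflow tract.

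Library totals ran from 28921922 to 39351262 counts, and the 41 genes held 0.354 to 0.387% of them. Levels are given as CPM, read counts relative to library size after TMM scaling. All 10 cardiomyocyte markers were present, with a summed level of 38153 to 44886 CPM. Lemd2 lay at 34.4 to 36.8 CPM in control and at 13.7 to 18.5 CPM in cKO libraries (edgeR adjusted p = 0.00135, log2 fold change -1.13, SE 0.086), so the targeted gene fits the labels. The control libraries and cKO replicates 1 and 2 had 80.4 to 105 CPM of the Y-linked gene Ddx3y. The cKO replicates 3 and 4 had at most 0.0543 CPM of it and 1324 and 1102 CPM of Xist, the RNA of the inactive X chromosome, so sex was not balanced between the groups. In bulk tissue, fewer cells of a type and less RNA per cell cannot be told apart.

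None of the 41 genes differed between cKO and control ventricle at an adjusted p under 0.05 (edgeR quasi-likelihood test, Benjamini-Hochberg adjustment over 14887 genes tested), against 1.09% of all genes tested. At an unadjusted p under 0.05 there were 6 of 41 genes, or 14.6%, against 17.9% of all genes. These were the receptors Fzd1 and Ror2, the antagonist Sfrp1, the ubiquitin ligase Znrf3 and the acyltransferase Porcn, all lower in cKO, and the Wnt carrier Wls, which was higher. When a term for Y-linked expression was added, 3 of the 41 had an unadjusted p under 0.05 by edgeR (7.32%, against 9.64% of all genes in that setting). Of the 6 genes only Sfrp1 and Znrf3 were among them, while Tcf7l1 was added. The unadjusted p by edgeR in that setting was 0.179 for Fzd1, 0.165 for Ror2, 0.0675 for Porcn and 0.0638 for Wls. The log2 fold changes of these genes were -0.15 (SE 0.10), -0.12 (SE 0.081), -0.39 (SE 0.18) and 0.12 (SE 0.055). Without the term they were -0.23 (SE 0.077), -0.15 (SE 0.058), -0.34 (SE 0.13) and 0.11 (SE 0.039). The limma-voom test called 0 of the 41, against 162 of 14887 genes tested. DESeq2 called 1 of the 41, Sfrp1, against 629 of 14884 genes tested. The cKO and control libraries did not overlap for 4 genes, or 9.76% (Sfrp1, Znrf3 and Porcn lower, Apc higher), against 16.9% of all genes. These shares are given as a description of the 41 genes, and each of those above is below that of all genes tested. In other settings the share at an unadjusted p under 0.05 lay on either side of that of all genes. It was 17.1% against 14.9% of all genes with DESeq2. With edgeR it was 19.5% against 13.7% for the libraries with F169 in their titles, and 9.76% against 14.4% without control replicate 2.

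The log2 fold changes of the 41 genes had a median of -0.03, against -0.0060 over all genes, with 26 below 0 and 15 above. The 95% interval of the fold change lay inside a 1.5-fold change in either direction for 35 of the 41 genes (85.4%, against 81.7% of all genes tested). It lay inside 2-fold for 40 (97.6%, against 94.3% of all genes tested), the exception being Sfrp2. These intervals are not adjusted for the number of genes. The 6 genes with an unadjusted p under 0.05 lie, on mm10, at chr5:4753839-4758217 (Fzd1), chr13:53109317-53286110 (Ror2), chr8:23411502-23449633 (Sfrp1), chr11:5276329-5444848 (Znrf3), chrX:8193846-8206526 (Porcn) and chr3:159839650-159938667 (Wls). For 27 of the 41 genes the SD of log2 CPM within groups, pooled over both groups, was larger than the difference between the groups. The share of all genes for which this holds was not counted.

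**Figure D1:**
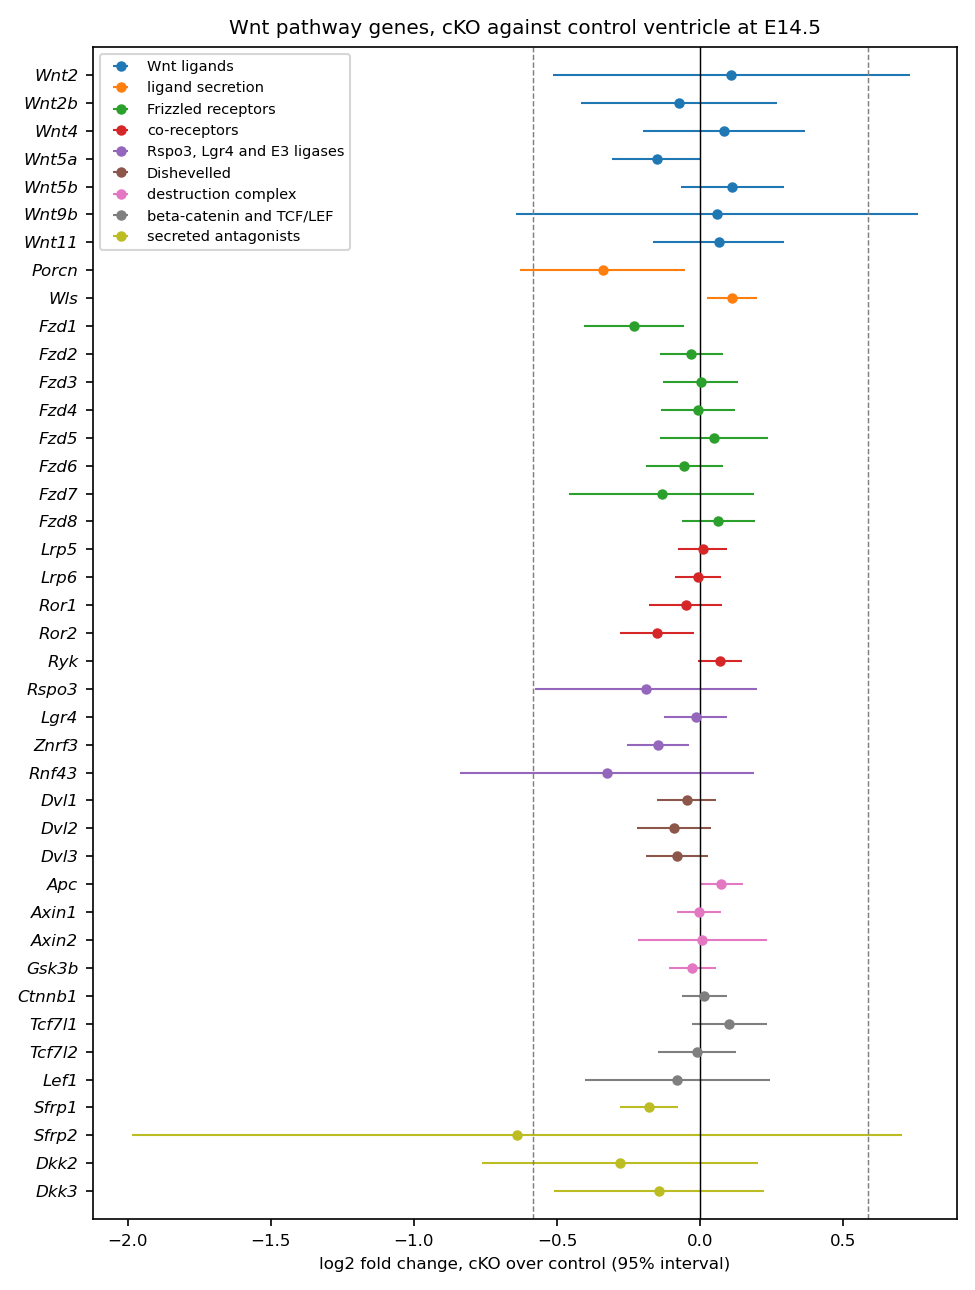
Log2 fold change (cKO over control, horizontal axis) of the 41 genes with its 95% interval, grouped by role. Dashed lines mark a 1.5-fold change. The intervals of 35 genes lie between the dashed lines, and that of Sfrp2 is the widest, from -1.98 to 0.71.

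Among the ligands, Wnt5a, which mostly acts through Ror receptors on polarity and movement, had the highest level per length. It had 8.22 CPM per kilobase of exon in control, followed by Wnt11, another ligand of that kind, at 3.39 and Wnt5b at 3.02. Wnt4 (2.22), Wnt2b (1.84), Wnt9b (1.08) and Wnt2 (0.917) had less. Wnt5a had 56.1, 68.2 and 68.6 CPM in control and 59.8, 58.1, 54.7 and 58.8 CPM in cKO libraries. Control replicate 1 fell among the cKO values, so the groups overlapped, with a log2 fold change of -0.15 (SE 0.069, adjusted p = 0.285 by edgeR). Wnt11, which is made by heart muscle and outflow tract cells, had 13.8, 15.4 and 12.8 CPM in control and 17.1, 14.6, 12.7 and 14.2 CPM in cKO. The highest and the lowest of these values were both cKO libraries (log2 0.06, SE 0.10).

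Wnt9b, a ligand made by the endocardium of the valve region, had 5.53, 5.55 and 3.51 CPM in control and 6.96, 6.77, 3.95 and 2.63 CPM in cKO. Values spread more within cKO than the group means differed (log2 0.06, SE 0.31). The lowest values in each group came from control replicate 3 and cKO replicate 4, the libraries with the code F191 in their titles, while the others have F169. Without the Xist-expressing libraries the log2 fold change of Wnt9b was 0.49 (SE 0.20, adjusted p = 0.379 by edgeR). That subset leaves out cKO replicate 4 but keeps control replicate 3, so the codes are not balanced in it. Within the F169 libraries it was 0.097 (SE 0.22, adjusted p = 0.884 by edgeR). Wnt2, a ligand active in early heart progenitors, had 1.81, 1.83 and 2.56 CPM in control and 2.55, 2.09, 3.12 and 1.25 CPM in cKO. The cKO libraries covered the whole range of the controls. Wnt2b, Wnt4 and Wnt5b had log2 fold changes of -0.07, 0.08 and 0.11, and their groups overlapped. Counts of Wnt5b (8.37 CPM on average) are uncertain, because Fbxl14 (44.9 CPM) overlaps it on the opposite strand and the counting strand is not stated.

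Both members of the export machinery had an unadjusted p under 0.05, in opposite directions. Wls, the membrane carrier that takes Wnt proteins to the cell surface, had 200.1, 208 and 195 CPM in control and 216, 221, 223 and 208 CPM in cKO. Control replicate 2 and cKO replicate 4 had nearly the same level, and the other cKO libraries lay above all controls (log2 0.11, SE 0.039, adjusted p = 0.186 by edgeR). Porcn, the X-linked enzyme that attaches the lipid to Wnt proteins, had 3.54, 3.32 and 2.78 CPM in control and 2.52, 2.38, 2.56 and 2.69 CPM in cKO. Every cKO library was below every control (log2 -0.34, SE 0.13, adjusted p = 0.211 by edgeR). The cKO libraries with and without Xist had like levels of Porcn, and the log2 fold change was -0.39 without the Xist-expressing ones.

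**Figure D2:**
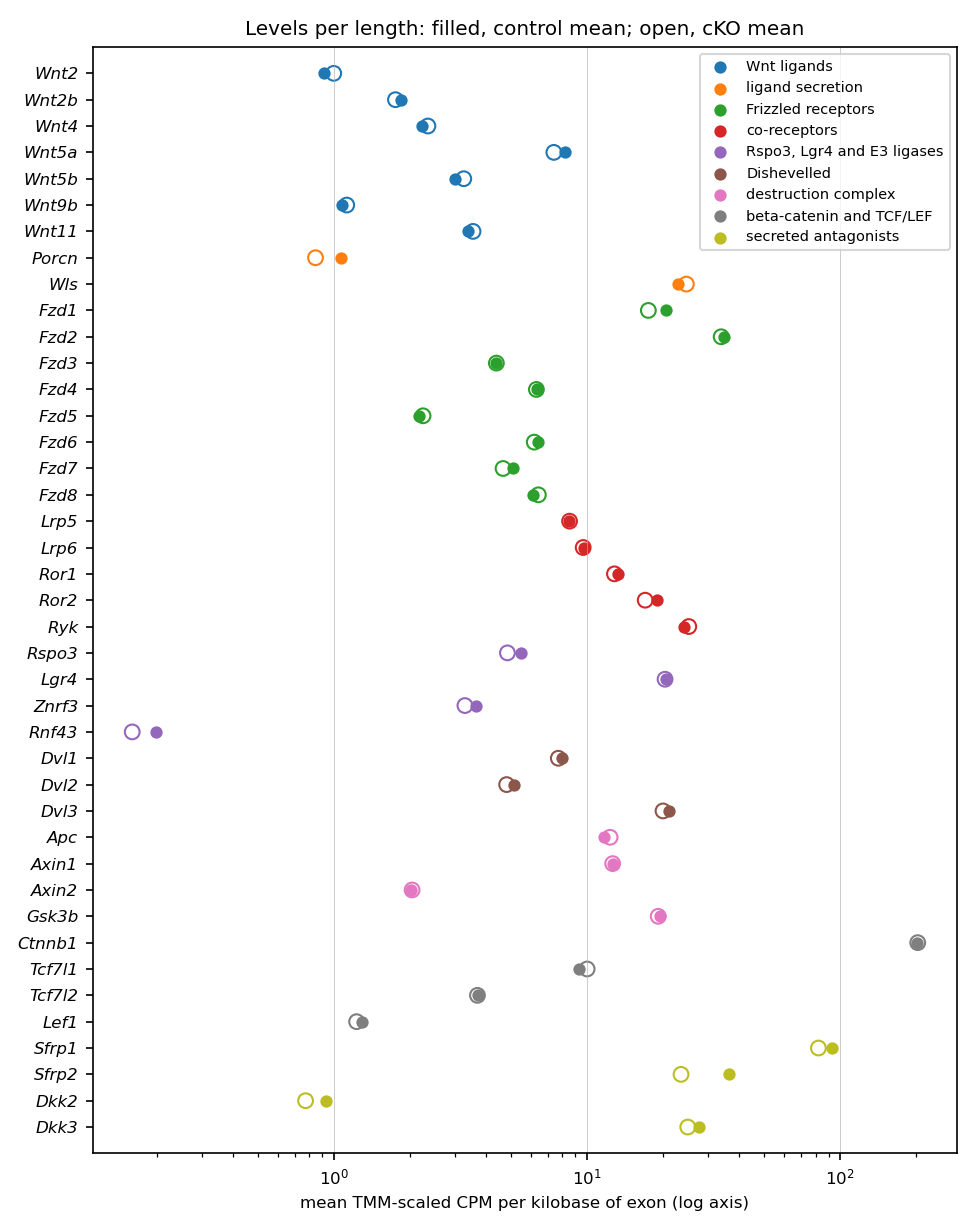
Mean level of each gene in CPM per kilobase of exon (log axis), with filled circles for control and open circles for cKO. Ctnnb1 stands highest at 200.4 in control and Rnf43 lowest at 0.198, and the filled and open circles of most genes lie close to each other.

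The Frizzled receptors, which bind Wnt proteins at the cell surface, were led per length by Fzd2 (34.6 CPM per kilobase in control) and Fzd1 (20.5). Fzd6, Fzd4, Fzd8, Fzd7, Fzd3 and Fzd5 had 6.42, 6.34, 6.14, 5.10, 4.37 and 2.18 CPM per kilobase. Fzd1 had 82.2, 92.9 and 82.9 CPM in control and 83.9, 68.4, 66.9 and 74.1 CPM in cKO. Only cKO replicate 1 reached the control range, with a log2 fold change of -0.23 (SE 0.077, adjusted p = 0.169 by edgeR). It was -0.26 within the F169 libraries and -0.15 with a term for Y-linked expression. Fzd2, Fzd3, Fzd4, Fzd5, Fzd6 and Fzd8 had log2 fold changes from -0.06 to 0.06, and the groups overlapped for each. Their 95% intervals reached at most down to -0.19 (Fzd6) and up to 0.24 (Fzd5). Fzd7 ranged from 16.3 CPM in cKO replicate 4 to 27.3 CPM in cKO replicate 1, with all controls in between.

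Among the co-receptors, Lrp5 and Lrp6, the partners of Frizzled in the beta-catenin branch, had log2 fold changes of 0.0083 (SE 0.039) and -0.0084 (SE 0.036). Their 95% intervals reached from -0.08 to 0.10 and from -0.09 to 0.07. Ror2, a receptor tyrosine kinase for Wnt5a, had 80.7, 75.2 and 84.2 CPM in control and 68.4, 75.8, 67.2 and 76.6 CPM in cKO. Control replicate 2 lay below 2 of the 4 cKO libraries, so the groups overlapped (log2 -0.15, SE 0.058, adjusted p = 0.219 by edgeR). Its relative Ror1 had -0.05 (SE 0.057). Ryk, a receptor without an active kinase, had the highest level per length of these 5 receptors at 24.1 CPM per kilobase and a log2 fold change of 0.07 (SE 0.035).

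**Figure D3:**
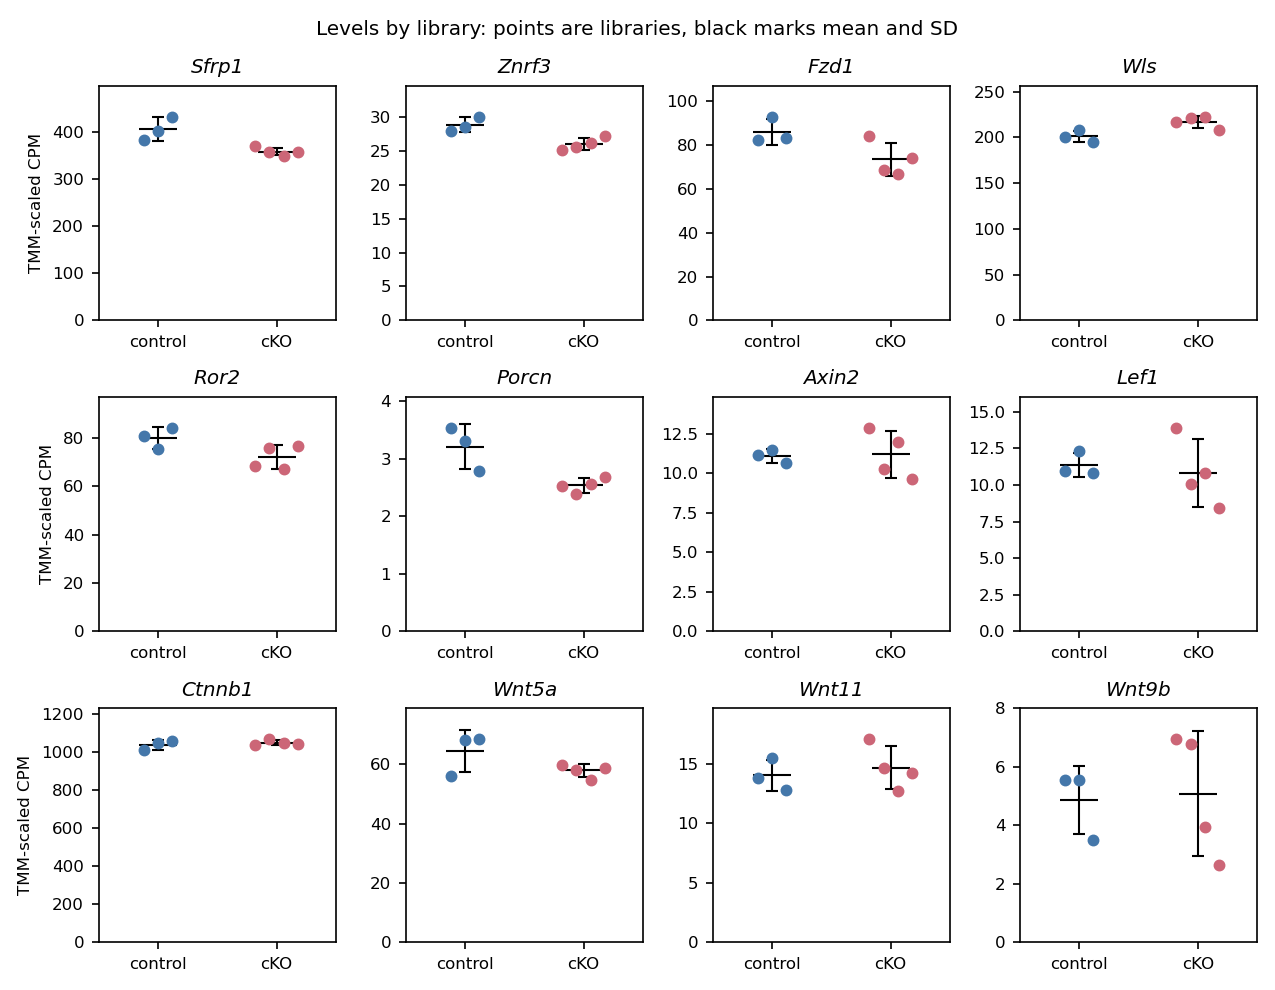
TMM-scaled CPM of 12 genes in each library (points), with mean and SD in black, and axes that start at 0. Sfrp1, Znrf3 and Porcn show no overlap between the groups, while the cKO libraries of Axin2, Lef1 and Wnt9b spread above and below the controls.

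Znrf3, a membrane ubiquitin ligase that removes Frizzled from the surface and is itself a target of beta-catenin, had 27.9, 28.5 and 30.0 CPM in control and 25.04, 25.6, 26.1 and 27.2 CPM in cKO. Each cKO library was below each control (log2 -0.15, SE 0.048, adjusted p = 0.160 by edgeR). It was -0.14 within F169 and -0.19 without the Xist-expressing libraries. Its homologue Rnf43 was the gene with the lowest level per length, with 1.38, 1.33 and 1.18 CPM in the controls and 0.941, 0.910, 1.52 and 0.814 CPM in cKO. One cKO library, replicate 3, had more than every control, and the interval was wide (log2 -0.33, SE 0.23). Rspo3, a secreted protein that shields Frizzled from these ligases, had 17.3, 20.6 and 13.1 CPM in control and 18.4, 14.9, 15.3 and 11.3 CPM in cKO. The groups overlapped, with a log2 fold change of -0.19 (SE 0.17). Lgr4, the R-spondin receptor, had -0.02 (SE 0.049).

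Dvl1, Dvl2 and Dvl3, the scaffold proteins that relay the signal from Frizzled, had log2 fold changes of -0.05, -0.09 and -0.08, with SE from 0.046 to 0.058. Dvl3 had the highest level per length of the 3 at 21.1 CPM per kilobase. In the destruction complex, Axin1, its scaffold, had a log2 fold change of -0.0038 (SE 0.034), and Gsk3b, the kinase that marks beta-catenin for degradation, had -0.03 (SE 0.037). The levels of Axin1 in the 7 libraries ran from 47.4 to 49.1 CPM. Apc, the second scaffold, had 190.6, 189 and 187 CPM in control and 199, 203, 202 and 192 CPM in cKO. Every cKO library was above every control, though cKO replicate 4 only just (log2 0.07, SE 0.034, adjusted p = 0.288 by edgeR). Genes of at most 3.07 CPM overlap Dvl1, Apc and Gsk3b on the opposite strand.

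Ctnnb1, which encodes beta-catenin, was the member with the highest level per length, at 200.4 CPM per kilobase in control. It had 1011, 1049.6 and 1062 CPM in control and 1039, 1073, 1049.6 and 1045 CPM in cKO. The groups overlapped throughout, and the log2 fold change was 0.02 with a 95% interval from -0.06 to 0.09. The level of its mRNA says nothing of protein stability, through which the pathway mainly acts. Of the factors that work with beta-catenin on DNA, Tcf7l1, mostly a repressor, had 0.10 (SE 0.059) and Tcf7l2 had -0.01 (SE 0.060). Lef1 had 10.9, 12.3 and 10.8 CPM in control and 13.9, 10.1, 10.8 and 8.41 CPM in cKO. The highest and the lowest levels of Lef1 were both in cKO (log2 -0.08, SE 0.14), and the sign turned without the Xist-expressing libraries (0.07, SE 0.14).

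Axin2, which beta-catenin induces in many tissues and which is widely used as a readout of the pathway, had 11.1, 11.5 and 10.7 CPM in control and 12.9, 10.3, 11.98 and 9.66 CPM in cKO. The cKO replicates 1 and 3 lay above all controls and replicates 2 and 4 below them. The mean was 11.1 ± 0.416 CPM in control and 11.2 ± 1.49 CPM in cKO (SD, 3 and 4 libraries). The log2 fold change of Axin2 was 0.0082 (SE 0.10, adjusted p = 0.976 by edgeR), with a 95% interval from -0.22 to 0.23. That interval holds falls to 0.860-fold and rises to 1.18-fold.

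Promoter windows of 250 bases before and 50 bases after the start were read from RefSeq (GRCm38.p6, the same genome as mm10) for 27 of the 41 genes. They were searched on both strands for the TCF/LEF core letters, namely CTTTGAT, the variant CTTTGAA, the variant CTTTGTT and the variant CTTTGTA, which cannot overlap each other on one strand. Of 36 windows of these genes 5 held a match (13.9%), against 16.9% of 32851 windows of all genes. The windows with a match belonged to the single start of Fzd7 and to one of several starts each of Wnt11, Wnt5b, Lef1 and Tcf7l2. A match is a string of letters and not a shown binding site. The windows of Wnt11 and Fzd7 are shown as examples with a match, and those of Wnt5b, Lef1 and Tcf7l2 are not shown. The window of Axin2 is shown because its level is the readout above and its window has none. Capitals mark the match, which on this strand reads as its reverse complement, with its first base at -51 from the start in Wnt11 and at -130 in Fzd7.
Axin2 promoter, chr11:108920099-108920398, plus strand: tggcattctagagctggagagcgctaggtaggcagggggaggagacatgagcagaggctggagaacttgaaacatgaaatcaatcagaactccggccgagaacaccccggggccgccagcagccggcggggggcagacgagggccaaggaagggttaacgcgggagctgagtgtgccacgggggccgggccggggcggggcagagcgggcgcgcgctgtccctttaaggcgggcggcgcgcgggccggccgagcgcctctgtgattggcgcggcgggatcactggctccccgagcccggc
Wnt11 promoter, chr7:98834862-98835161, plus strand: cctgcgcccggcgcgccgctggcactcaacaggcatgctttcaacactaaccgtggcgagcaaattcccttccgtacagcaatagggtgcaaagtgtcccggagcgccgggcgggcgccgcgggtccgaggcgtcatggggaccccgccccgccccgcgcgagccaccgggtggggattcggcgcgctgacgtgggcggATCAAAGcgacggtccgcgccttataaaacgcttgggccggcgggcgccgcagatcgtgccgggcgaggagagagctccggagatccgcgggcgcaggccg
Fzd7 promoter, chr1:59481897-59482196, plus strand: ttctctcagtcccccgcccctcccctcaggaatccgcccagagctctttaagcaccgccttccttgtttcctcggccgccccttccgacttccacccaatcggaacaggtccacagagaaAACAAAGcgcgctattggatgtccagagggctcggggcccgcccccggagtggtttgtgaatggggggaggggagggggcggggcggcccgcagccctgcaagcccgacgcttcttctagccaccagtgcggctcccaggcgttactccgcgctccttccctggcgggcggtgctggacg
The log2 fold changes of the genes with a match were 0.06 for Wnt11, -0.13 for Fzd7, 0.11 for Wnt5b, -0.08 for Lef1 and -0.01 for Tcf7l2, and none of these 5 passed the test.

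The genes grouped here as secreted antagonists encode proteins that act outside the cell. Some of them hold Wnt proteins or block their co-receptors, which need not hold for each of the 4. All 4 genes had log2 fold changes below 0, with a median of -0.23. The edgeR test called 0 of the 4, against 1.09% of all genes tested, and limma-voom called 0. DESeq2 called 1, Sfrp1, against 629 of 14884 genes tested. With edgeR, 1 of the 4 had an unadjusted p under 0.05, against 17.9% of all genes. Of the 10 other secreted modulators tested, 6 were above 0, with a median of 0.021. Sfrp1, a soluble Frizzled-like protein and the second highest of the 41 genes per length (92.9 CPM per kilobase), had the smallest p of all members. It had 383, 402 and 433 CPM in control and 370.0, 358, 350.3 and 357 CPM in cKO. Each cKO library was below each control, and the means were 406 ± 25.1 CPM for control and 359 ± 8.18 CPM for cKO (SD, 3 and 4 libraries). The log2 fold change of Sfrp1 was -0.18 (SE 0.046, 95% interval from -0.28 to -0.08, adjusted p = 0.0925 by edgeR). The adjusted p was 0.0086 with DESeq2, and over all alternatives the log2 fold change ran from -0.22 to -0.13 and the adjusted p from 0.0086 to 0.473. Within the F169 libraries it was -0.13 (SE 0.048), and without the Xist-expressing libraries -0.16 (SE 0.059).

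Sfrp2, a relative of Sfrp1, varied most between libraries of one group. It had 65.4, 140.0 and 28.8 CPM in control and 116, 25.4, 31.4 and 29.6 CPM in cKO. Control replicate 2 and cKO replicate 1 were high in both groups. The log2 fold change of Sfrp2 was -0.64 (SE 0.60, adjusted p = 0.623 by edgeR). It moved with single libraries, to 0.10 without control replicate 2 and to -1.45 without cKO replicate 1. With both left out it was -0.71 (SE 0.29). Dkk3, a secreted protein of the Dickkopf family, had 87.0, 112 and 78.8 CPM in control and 112, 76.6, 77.3 and 69.9 CPM in cKO, with the same libraries on top. Dkk2, a Dickkopf that binds Lrp5 and Lrp6, had 2.42 to 4.72 CPM in control and 2.62 to 3.43 CPM in cKO.

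Control replicate 2 was the highest control and cKO replicate 1 the highest cKO library for 10 of the 41 genes (24.4%), against 12.3% of all genes tested, a count made after the values were seen. The 10 genes were Wnt9b, Wnt11, Fzd1, Fzd4, Axin2, Lef1, Sfrp2, Dkk2, Dkk3 and Rspo3. The summed level of 10 markers of fibroblasts, mesenchyme and valve was 4735, 5537 and 4567 CPM in control and 5642, 4355, 4222 and 5137 CPM in cKO. This sum too was highest in those libraries, and the summed cardiomyocyte markers were lowest in them, at 42099 and 38153 CPM. Single markers did not all follow the sums. Col3a1, Fbln2 and Lum were highest of their group in both libraries. Among controls, Postn, Tcf21, Sox9 and Dcn were highest in replicate 1 and Pdgfra in replicate 3. Among cKO libraries, Col1a1 and Col1a2 were highest in replicate 4. The cardiomyocyte markers Ttn, Actc1, Tnni1 and Myh6 were not lowest in both libraries. The part of these markers in the levels of the 10 genes was not tested. With both libraries left out, an alternative added after the data were seen, 0 of the 41 genes were called by edgeR and 7 had an unadjusted p under 0.05 (17.1%, against 14.7% of all genes in the same setting), with Sfrp2 at -0.71 (SE 0.29, adjusted p = 0.319).

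**Figure D4:**
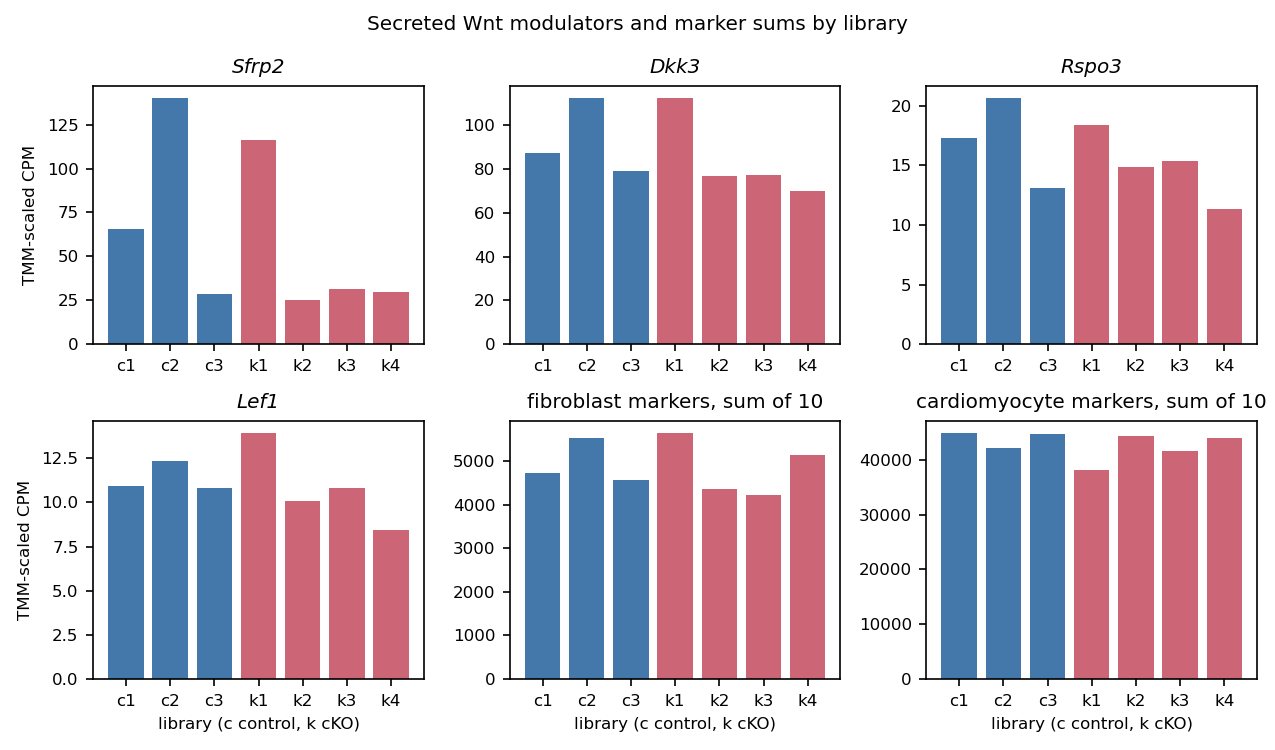
TMM-scaled CPM of Sfrp2, Dkk3, Rspo3 and Lef1 and the summed levels of fibroblast and cardiomyocyte markers in each library (blue control, red cKO). Control replicate 2 and cKO replicate 1 have the highest bars of their groups in the first 5 panels and the lowest in the last.

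**Figure D5:**
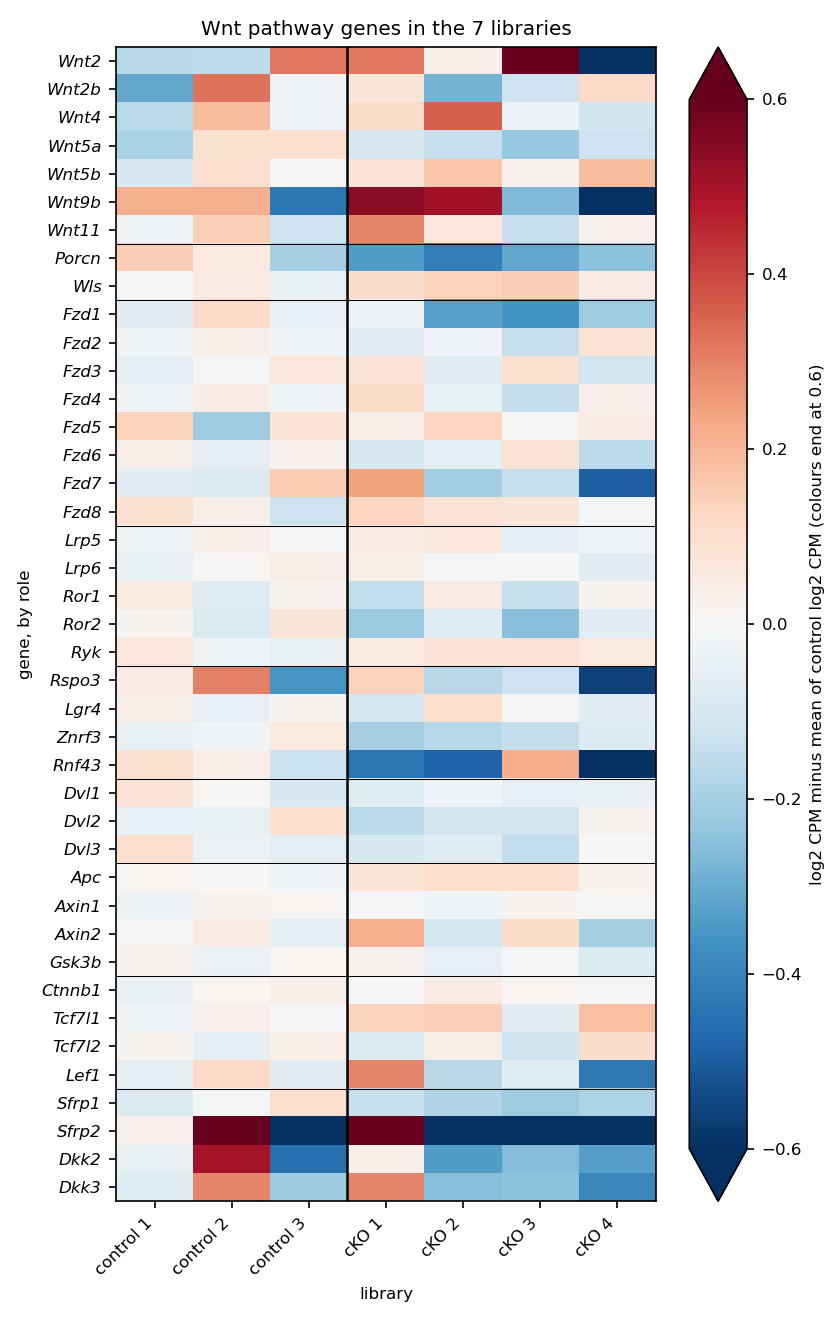
Log2 CPM of each of the 41 genes in each of the 7 libraries, minus the mean of the controls, ordered by role (colours end at 0.6). Rows of Ctnnb1, Axin1, Gsk3b, Lrp5 and Lrp6 are pale in every library, while Sfrp2, Dkk2, Rspo3, Wnt2 and Wnt9b change colour within each group.

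Beyond these 41 genes, 112 other genes of the pathway were in the table and 109 were tested. Of these 1 was called by edgeR with group as the only term, against 1.09% of all genes tested. An unadjusted p under 0.05 was found for 24 (22.02%, against 17.9% of all genes), with 12 higher and 12 lower. The called gene was Cd44, a hyaluronan receptor and a beta-catenin target in gut epithelium. Cd44 had 80.8, 79.3 and 76.3 CPM in control and 97.7, 106, 102 and 102 CPM in cKO, each above every control (log2 0.37, SE 0.038, adjusted p = 0.0040 by edgeR). Its adjusted p was 0.0486 within F169, and the call was lost without the Xist-expressing libraries (0.37, SE 0.051, adjusted p = 0.0750) and when a term for Y-linked expression was added (adjusted p = 0.0521). Leukocytes also make Cd44. The 10 macrophage and leukocyte markers summed to 138 to 142 CPM in control and 154 to 168 CPM in cKO. All 10 had an unadjusted p under 0.05 by edgeR, 9 higher and 1 lower, against 17.9% of all genes. Of the 10, 1 was called, higher in cKO (adjusted p = 0.0425 by edgeR), against 1.09% of all genes. The part of leukocytes in the level of Cd44 was not tested.

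Of the 16 tested targets of beta-catenin outside the 41 genes, Cd44 included, 9 had log2 fold changes above 0 and 7 below, with a median of 0.0087. At an unadjusted p under 0.05 by edgeR there were 6 of the 16 (37.5%, against 17.9% of all genes), 3 higher and 3 lower. With the 5 targets among the 41 genes (Znrf3, Rnf43, Fzd7, Lef1 and Axin2) added, 10 were above 0 and 11 below, with a median of -0.02. Of these 21 genes, 7 (33.3%) had an unadjusted p under 0.05, 3 higher and 4 lower. Outside the 41 genes, the count was 5 of 15 (33.3%) for listed nuclear partners of beta-catenin and 0 of 10 for secreted modulators. Nkd2, a Dishevelled inhibitor that the pathway induces, had 10.2, 10.3 and 9.86 CPM in control and 7.60, 8.21, 6.51 and 9.31 CPM in cKO (log2 -0.35, SE 0.11, adjusted p = 0.144 by edgeR). Tcf7, another TCF factor and a target, had 7.57, 7.89 and 6.88 CPM in control and 8.23, 8.88, 8.86 and 9.23 CPM in cKO (log2 0.24, SE 0.080, adjusted p = 0.164 by edgeR). The cKO libraries thus lay below all controls for the one and above all controls for the other.

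In the secretory route, Tmed2 and Tmed5, cargo receptors that help Wnt proteins leave the endoplasmic reticulum, had 0.14 (SE 0.042) and 0.16 (SE 0.048). They were the 2 of 5 tested genes of the route besides Porcn and Wls with an unadjusted p under 0.05 (40.0%, against 17.9% of all genes), and the smallest adjusted p was 0.127 by edgeR. Among 22 tested planar polarity genes 4 had an unadjusted p under 0.05 (18.2%, close to the 17.9% of all genes), with a smallest adjusted p of 0.114 by edgeR. Prickle2, a core polarity protein, had 0.19 (SE 0.056) and Fuz, a polarity effector of cilia, -0.29 (SE 0.082). Of the 17 tested genes of the calcium branch 5 had an unadjusted p under 0.05 (29.4%, against 17.9% of all genes). Nfatc3, a calcineurin-dependent factor, had 96.9, 95.3 and 96.1 CPM in control and 108, 105, 105 and 106 CPM in cKO (log2 0.14, SE 0.029, adjusted p = 0.0573 by edgeR). All its cKO libraries lay above the controls. The calcium-dependent kinase Camk2a had -0.19 (SE 0.051) and Nlk, a kinase that acts on TCF factors, had 0.13 (SE 0.035). Neither passed the edgeR test with group as the only term. Under the alternatives, Nfatc3, Camk2a and Tmed2 each passed the adjusted threshold in some setting but not in all, and Nlk in none.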

How the data were processed

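RNA-seq libraries of whole ventricle were made with a directional kit, per the labels' protocols. The authors deposited 1 table of estimated counts, which its name calls raw. The submitters' processing notes name STAR 2.4.2a, HTSeq 0.6.1 and mm10 without saying what each did, and no source used here gives the counting strand. Of all values 30.3% were not whole and were rounded. Columns were matched to samples by the code in the titles. 1 column matched no sample, equalled the sum of the 7 libraries in all 15358 genes and was not used.

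Genes were filtered with filterByExpr (minimum count 10), which removed 471 and left 14887. They were compared with the quasi-likelihood F-test of edgeR 4.0.16 in R 4.3.3 (TMM scaling, group as the only term, Benjamini-Hochberg adjustment over all genes tested, threshold 0.05). SE is the log2 fold change over the square root of F, and intervals are 95%. Libraries of a group differed by more than counting error (chi-square over degrees of freedom 9.39 to 13.1 across genes), and the lowest count of a member in any library was 28. Levels per length use summed exon length in GENCODE M21 (mm10), which may differ from the annotation the authors counted on. Alternatives were DESeq2 1.42.0, limma-voom (limma 3.58.1), other scaling factors, no filter, terms for the replicate number, title code and Y-linked expression, and subsets of libraries. The edgeR test was tried on simulated data with known changes. No label ties a sample to a litter, so the p-values reflect only how far these samples differ from each other.

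The members and gene lists were chosen with earlier results of these data known. Named are all members and, from the pathway lists, called genes and up to 3 per list with the smallest p. Members with an unadjusted p under 0.05 and a listed set of key members have each library's value, and those of others were added after their values were seen.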

Additional observations from a re-analysis of the deposited data

Results flagged for a closer look

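Sfrp2 in cKO replicate 1 had 116 CPM, against 25.4 to 31.4 CPM in the other 3 cKO libraries, a gap wide enough to set it apart from them by Dixon's criterion for 4 samples. It was 1 of 41 genes tested this way in the cKO group, and chance alone gives such a gap in about 1 of 20 groups. The control libraries, which were not tested this way, spread from 28.8 to 140.0 CPM.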

How the results depend on the processing

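Over 18 alternatives, edgeR called 0 of the 41 genes under each edgeR setting, limma-voom called 0 and DESeq2 called 1 (Sfrp1). The median log2 fold change of the 41 genes moved by less than the SD between libraries (0.043) in all of them. That SD is larger than the main median of -0.03, so this measure could not show a loss of the median. The median was -0.0039 with Y-linked expression as a term (-0.0041 over all genes). It was -0.0012 without the Xist-expressing libraries (-0.0055 over all genes) and -0.044 without cKO replicate 1 (-0.0076 over all genes). Over all genes 162 were called, against 629 with DESeq2 and 162 with limma-voom. The count was 214 with the title code as a term, 172 with each of the other scaling factors and 157 without the filter. It was 22 with Y-linked expression as a term, 20 within F169 and 17 without the Xist-expressing libraries. With control replicate 2 and cKO replicate 1 both left out 15 were called, and with single libraries left out 28 to 133. With the replicate number as a block 13 were called. Same-numbered libraries did not deviate together (r = 0.039, -0.075 and -0.079 across genes), so the numbers do not pair the samples. For control and cKO libraries with the same title code r ran from -0.075 to 0.224, and for the other pairs from -0.200 to 0.064. Cd44 had an adjusted p of 0.0662 under the block by edgeR.

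For 20 of the 41 genes the sign was the same in every alternative. For the other 21, not called in any alternative, the log2 fold change changed sign in at least 1. It was -0.0090 for Wnt2, -0.023 for Fzd3, 0.065 for Fzd4, 0.012 for Lrp6, 0.0072 for Tcf7l2, 0.058 for Lef1, 0.055 for Sfrp2 and 0.050 for Dkk3 with Y-linked expression as a term. It was -0.043 for Wnt2, 0.070 for Wnt2b, -0.016 for Wnt9b, -0.029 for Fzd3, -0.044 for Fzd5, 0.0080 for Axin1 and -0.038 for Axin2 with control replicate 2 and cKO replicate 1 both left out. It was -0.034 for Wnt9b, -0.0038 for Fzd3 and -0.014 for Axin2 with limma-voom. It was -0.033 for Wnt9b, -0.0023 for Fzd3 and -0.0091 for Axin2 with the title code as a term. It was -0.0074 for Fzd3, -0.00066 for Lrp5 and -0.00056 for Axin2 with upper-quartile factors. It was 0.034 for Fzd4, 0.025 for Fzd7, 0.017 for Lrp6, 0.071 for Lef1 and 0.023 for Dkk3 without the Xist-expressing libraries. It was 0.055 for Fzd7, 0.032 for Lrp6 and 0.012 for Lgr4 for the F169 libraries. It was 0.010 for Lrp6, 0.017 for Lef1 and 0.00022 for Lgr4 with the replicate number as a block. With single libraries left out it ran from -0.085 to 0.32 for Wnt2, -0.21 to 0.11 for Wnt2b, -0.020 to 0.19 for Wnt4, -0.13 to 0.28 for Wnt9b, -0.015 to 0.14 for Wnt11, -0.070 to 0.0024 for Fzd2, -0.029 to 0.040 for Fzd3, -0.049 to 0.033 for Fzd4, -0.051 to 0.12 for Fzd5 and -0.0092 to 0.030 for Lrp5, and from -0.029 to 0.012 for Lrp6, -0.0040 to 0.030 for Ctnnb1, -0.017 to 0.0068 for Axin1, -0.066 to 0.076 for Axin2, -0.052 to 0.022 for Tcf7l2, -0.22 to 0.027 for Lef1, -1.45 to 0.095 for Sfrp2, -0.48 to 0.018 for Dkk2, -0.31 to 0.017 for Dkk3 and -0.052 to 0.013 for Lgr4. The causes were not tested.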
